A study of Mus musculus with 18 samples.

Results

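Satellite cells, the stem cells that lie along skeletal muscle fibres, were compared between needle-injured and uninjured muscle in mice that were not pregnant, by RNA sequencing of 9 of the 18 libraries in the series. The 6 activated libraries came from injured hind-limb muscle and the 3 non-activated libraries from uninjured muscle, taken by group from the labels. All mice were C57BL/6, 8.5 to 9 months old, and injury was made with repeated punctures by a 23-gauge needle. Cells were sorted by flow cytometry as VCAM1+/CD31-/CD45-/Sca-, that is, for a satellite cell surface protein and against endothelial, leukocyte and mesenchymal progenitor proteins. Libraries of injured mice were made with the TruSeq kit after poly-A selection, and those of non-injured mice with the SMARTer stranded total RNA kit after ribosomal RNA depletion. The kit therefore goes with injury in every library, and the part of the kit in any difference between the groups cannot be told apart from that of injury. Neither the time from injury to sampling nor whether each library is a separate animal is given in the labels. The p values thus measure the spread between libraries only. That spread was estimated from all 18 libraries of the series, fitted together in 4 groups. Of 47729 genes listed, the 10792 with values are all protein coding, and 10751 passed the filter on low values.

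In resting muscle, satellite cells are held out of the cell cycle and express the transcription factor Pax7, with signals such as Notch keeping them quiescent. After injury they enter the cell cycle, raise Myod1, and their progeny then raise Myog, leave the cycle, and fuse into new fibres. These steps are accompanied by a larger cytoplasm, more mitochondria and a matrix that the cells and their neighbours rebuild.

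Total counts over the 10792 genes with values were 15144397 to 20500462 in activated libraries and 17903943 to 24336842 in non-activated libraries. Shares of counts given below are shares of these totals. Across genes, libraries correlated at Pearson r = 0.979 to 0.994 within activated cells and 0.899 to 0.949 within non-activated cells, against 0.721 to 0.805 between the groups. Of the 10792 genes with values, 3 to 8 were at 0 in each activated library, against 590, 153 and 49 in non-activated libraries 1, 2 and 3. Non-activated library 1 thus had the most undetected genes, and where it decides a value this is given beside it.

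Limma, fitted to log2 of the deposited normalised count plus 1, called 72.6% of the genes tested at an adjusted p under 0.05, with 39.0% higher and 33.6% lower in activated cells. The groups did not overlap, so that all 6 activated libraries lay above or below all 3 non-activated ones, for 68.4% of genes. Any list of genes has to be read against these shares. The log2 change also went with genomic span, the distance from a gene's first to its last annotated base. Genes spanning under 10 kb were higher in 71.1% and lower in 4.15% of cases, with a median log2 change of 1.46, whereas genes over 300 kb were higher in 2.05% and lower in 87.1%, with a median of -2.83. Genes of at least 100 kb took 9.14% to 11% of the counts in activated libraries and 34.7% to 36.0% in non-activated libraries.

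Total RNA libraries can hold unspliced transcripts, whose length follows span, and their part in these values was not tested. Each change is therefore also given in a second form, after a smooth trend of level against log span had been subtracted from each library. The rank correlation of log2 change with span, a description over genes and not a test, was -0.621 before and -0.006 after this step. After it, 33.8% of genes were higher and 29.6% lower. Of the genes higher at first, 2683 were still higher, 225 were lower and 1281 were no longer called. For the genes lower at first, the numbers were 2266 still lower, 371 higher and 980 no longer called. The subtraction removes any change that truly goes with span, whatever its source, so neither form is taken as the correct one.

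**Figure D1:**
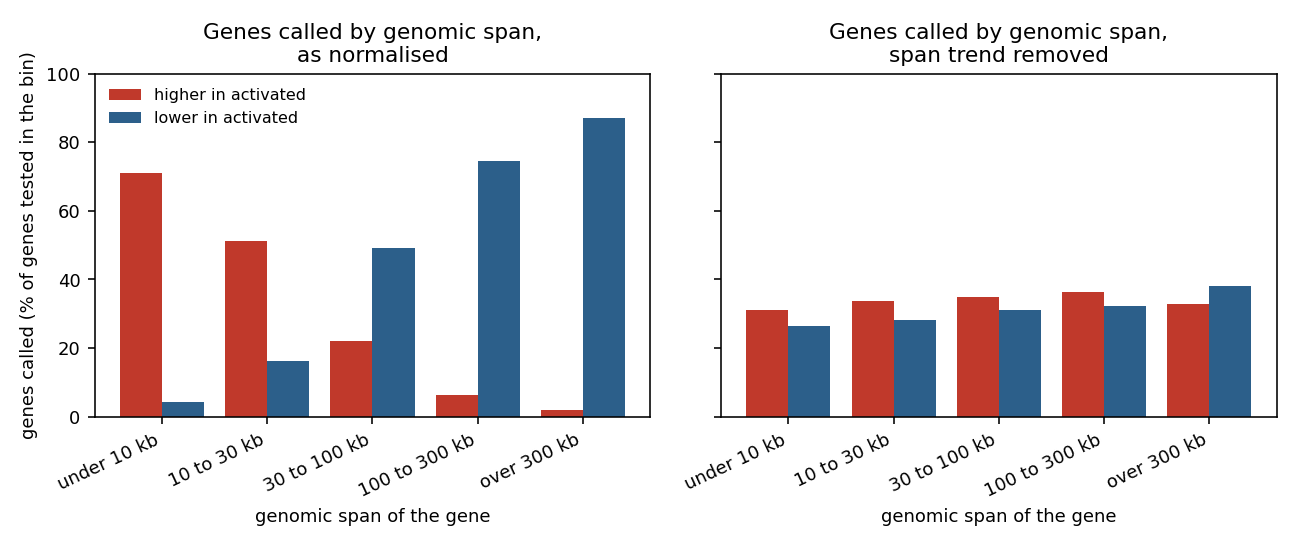
Share of tested genes called higher (red) or lower (blue) in activated than in non-activated cells, as a percentage of the genes in each of 5 bins of genomic span; the left panel uses the deposited normalisation and the right panel the values after removal of the span trend. On the left the share called higher falls with span from 71.1% in genes under 10 kb, and on the right it lies between 31.2% and 36.4% in the 5 bins.

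Markers of the satellite cell state moved in both directions. The 23 tested genes of a list of satellite cell identity included 9 that were higher and 10 that were lower, and 8 and 11 after the span trend was removed. Pax7 (ENSMUSG00000028736, GRCm38 chr4:139737062-139833528) was at 4555 to 7991 normalised counts (median 6925) in activated cells, against 14481, 18787 and 20831 in non-activated cells. The 2 groups did not overlap, and the change of -1.45 ± 0.16 (SE, adjusted p = 1.2e-07) shrank to -0.42 (adjusted p = 0.023) once the trend for its 96.5 kb span was removed. Pax3, its close relative, fell, with a log2 change of -2.98, with 59.0 to 104 in activated cells against 516 to 720.4 in non-activated cells, and of -1.96 after removal. Calcr, the calcitonin receptor that helps to keep satellite cells quiescent, was at 509.6 to 1455 normalised counts (median 1210.3) in activated cells and at 3498, 3817 and 6143 in non-activated cells. Its change of -2.01 ± 0.31 (SE, adjusted p = 1.0e-05) kept its direction at -1.15 after removal.

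Musk, the kinase that organises the nerve-muscle contact, had the largest fall in this list, to 1047 to 1439 in activated cells against 12951, 13258 and 15936 in non-activated cells, with a log2 change of -3.55 ± 0.14 (SE, adjusted p = 9.0e-14). Eya1 and Eya4, transcriptional cofactors in muscle precursors, fell, with log2 changes of -2.94 and -3.53, while the homeobox factor Six4 rose by 1.49. All 3 kept their direction and their call after the span trend was removed. Myf5, a myogenic factor already present in resting satellite cells, was at 1788 to 2955 normalised counts (median 2599) in activated cells and 1234, 1276 and 1366 in non-activated cells. Its log2 change was 0.93 ± 0.18 (SE, adjusted p = 1.2e-04), but it turned to -0.67 after removal, so its direction depends on how the 3.23 kb span of this gene is treated. Vcam1, the protein used in the sort, was at 9302 to 13320.1 normalised counts (median 11822) in activated cells and 9673, 12245 and 14855 in non-activated cells. These ranges overlapped, and the 95% interval of the log2 change was -0.48 to 0.30 (adjusted p = 0.68).

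The myogenic programme downstream of these factors was higher in activated cells. Of 20 tested genes of commitment and fusion, 12 were higher and 5 lower, with a median of 1.2 on the log2 scale against 0.17 over all genes, and 12 were higher and 3 lower after span removal. Myog (ENSMUSG00000026459, GRCm38 chr1:134289989-134292548), which drives terminal differentiation, was at 7561 to 9679 normalised counts (median 8621) in activated cells, against 310.2, 889 and 106 in non-activated cells. The activated values were tight, whereas the 3 non-activated values spread over several-fold. Its log2 change was 4.80 ± 0.52 (SE, adjusted p = 1.3e-07), and 3.05 after removal, and it was 5.56 without non-activated library 2 and 4.03 without non-activated library 3. Myod1, the factor that commits cells to the muscle lineage, was at 8680.4 to 10767 normalised counts (median 10037) in activated cells and 1299, 1295 and 1403 in non-activated cells, a log2 change of 2.89 ± 0.13 (SE, adjusted p = 8.1e-13), and 1.16 after removal.

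Subunits of the fetal acetylcholine receptor, which are expressed as muscle precursors differentiate, rose as well. Chrna1, the alpha subunit, was at 5438 to 9298 normalised counts (median 6371) in activated cells and 789, 992 and 1141 in non-activated cells, with a log2 change of 2.78 ± 0.19 (SE, adjusted p = 1.3e-10). The delta subunit Chrnd had 736 to 1682 normalised counts in activated cells, against 0.982, 24.6 and 15.6 in non-activated cells, where it was nearly undetected. Tmem8c, the membrane protein that drives myoblast fusion, also known as myomaker, was higher by 4.86 on the log2 scale, and the scaffold Dok7, which activates Musk, by 3.91, although Musk itself fell. Tmem8c, Dok7 and the identity genes other than Pax7, Myf5, Calcr, Vcam1, Musk and Erbb3 were picked after their values were seen.

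Sarcomere genes held some large rises, but the share called higher was close to that of all genes in both the embryonic and the adult list. Actc1, the cardiac actin made early in muscle development, was at 1899 to 3046 normalised counts (median 2519) in activated cells, against 0, 86.9 and 0 in non-activated cells, and embryonic myosin Myh3 was at 627 to 2054 normalised counts (median 765) in activated cells, against 0, 0.769 and 31.3 in non-activated cells. Both were at or near 0 in part of the non-activated libraries, and their fitted log2 changes of 9.09 and 7.89 depend on the pseudocount of 1, with ranges of 8.01 to 11.24 and 6.92 to 9.43 when any 1 library was left out. Over 12 embryonic and neonatal sarcomere genes, 5 were higher and 1 was lower, which was Nebl, a nebulin relative, at -4.58. Of 13 adult fibre genes 5 were higher, led by the muscle enolase Eno3 at 5.05, and 1, Dmd, encoding dystrophin, was lower, with medians of 1.18 and 1.19 in the embryonic and adult lists. Dmd spans 2257 kb and was at 1052 to 2212 normalised counts (median 1564) in activated cells, against 37196, 31266 and 43504 in non-activated cells. Its log2 change was -4.60 as normalised and 0.23 (adjusted p = 0.12) after removal of the span trend.

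**Figure D2:**
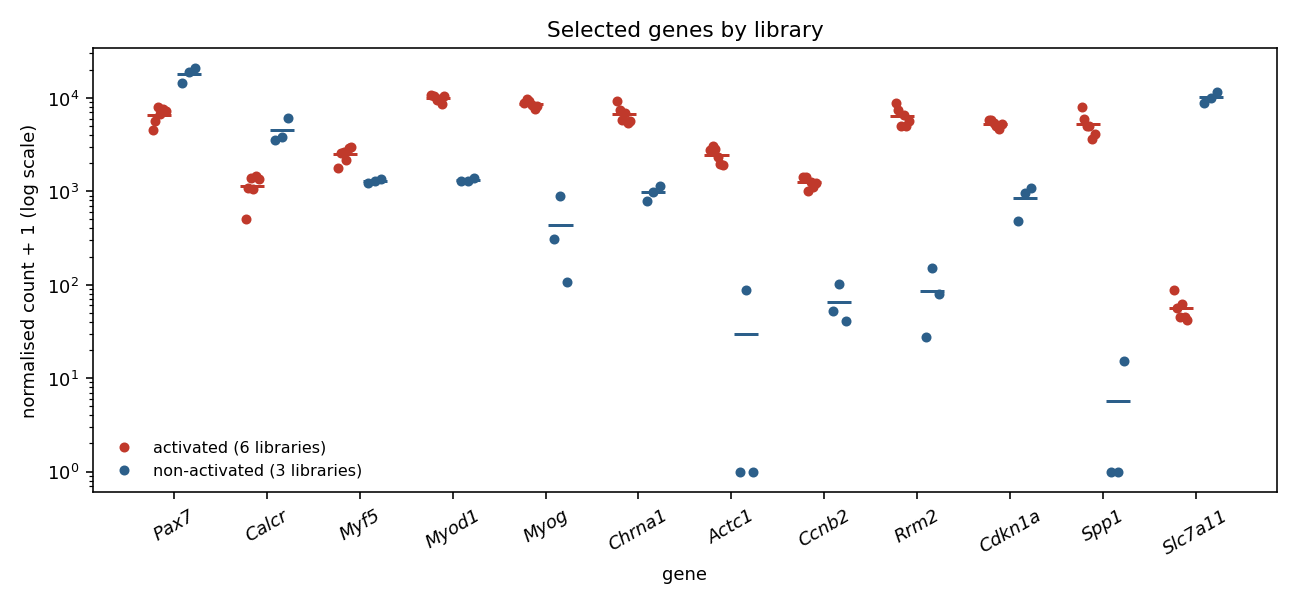
Normalised count plus 1 on a log axis for 12 genes, with a point for each activated (red, left) and non-activated (blue, right) library and a bar at each group mean. Myod1, Myog, Chrna1, Actc1, Ccnb2, Rrm2, Cdkn1a and Spp1 lie higher in all 6 activated libraries than in the 3 non-activated ones, and Pax7, Calcr and Slc7a11 lie lower.

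Mitosis genes gave the highest median change of the lists with at least 3 tested genes. All 33 tested genes of mitosis and cytokinesis were higher in activated cells, by a median of 4.11 on the log2 scale, and 32 were higher after span removal, the exception being Pttg1, encoding securin, at -0.37. Ccnb2, a cyclin of mitotic entry, was at 995 to 1438 normalised counts (median 1245) in activated cells, against 51.1, 100.0 and 39.8 in non-activated cells, a log2 change of 4.37 ± 0.25 (SE, adjusted p = 1.4e-11). Cenpa, the histone H3 variant that marks centromeres, had 969.7 to 1707 in activated cells and 3.93, 31.5 and 24.9 in non-activated cells. The summed counts of the 33 genes were 40721 to 71046 in activated libraries, against 4114 to 8878 in non-activated libraries.

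Genes of DNA synthesis followed with 28 of 32 higher and 1 lower, with a median of 2.45, and 31 higher and 0 lower after removal. Rrm2, the ribonucleotide reductase subunit made in S phase, was at 4963 to 8915 normalised counts (median 6134) in activated cells, against 26.5, 150.0 and 78.2 in non-activated cells, and its log2 change was 6.51 ± 0.37 (SE, adjusted p = 1.5e-11), or 5.84 without non-activated library 1. Mcm5, part of the replicative helicase, rose to 3298 to 5100.0 in activated cells, against 584, 402 and 299 in non-activated cells. The one gene called lower, the primase subunit Prim2, spans 216 kb, and its change of -1.0 turned to 0.92 after the span trend was removed. Among 14 cyclins, kinases and E2F factors of G1 and S phase 10 were higher and 1, E2f3, was lower at -1.85. Ccnd1, the D-type cyclin that couples growth signals to the cycle, was at 2934 to 5825 normalised counts (median 3569) in activated cells and 3092, 2668 and 2213 in non-activated cells, and the 95% interval of its log2 change was 0.04 to 1.00 (adjusted p = 0.0505), but it passed the threshold without non-activated library 1, or without activated library 3, 5 or 6, at 0.57 to 0.63. Over the fits with any 1 library left out its change ranged from 0.39 to 0.63.

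Some genes that stop the cycle were higher as well. Within the list of quiescence genes and cycle brakes, 10 of 23 were higher and 5 lower, and 7 and 11 after span removal. The share higher as normalised, 43.5%, was close to the 39.0% of all tested genes. Cdkn1a, the p21 inhibitor of cyclin-dependent kinases that differentiating myoblasts raise, was at 4601 to 5804 normalised counts (median 5319) in activated cells, against 484, 967 and 1075 in non-activated cells, a log2 change of 2.73 ± 0.19 (SE, adjusted p = 2.8e-10), and 1.81 after removal. Cdkn1c, the p57 inhibitor, rose by 2.92 ± 0.46 (SE, adjusted p = 1.6e-05), or by 3.65 without non-activated library 2, and Cdkn2c, the p18 inhibitor, by 2.79. Cdkn1b, the p27 inhibitor, was not called as normalised (log2 change 0.31, adjusted p = 0.10) and was at -1.01 and called lower after removal. In bulk libraries of this kind, cells that divide and cells that have left the cycle are summed, and a change in the number of cells of a type cannot be told apart from a change in RNA per cell.

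Promoters of the cell cycle genes are shown because their shared change can be set beside a shared sequence. The cell cycle genes homology region (CHR, TTTGAA) and the CCAAT box are known elements of genes expressed in G2 and M phase, and E2F sites (searched as TTTGGCGC or TTTCCCGC) are known in genes expressed at the start of S phase. In the promoters below, from 250 bases before to 50 bases after the RefSeq transcription start (GRCm38.p6, written 5′ to 3′ on the gene's strand), capitals mark these motifs and the E-box CAGCTG on either strand. Cyclin B2, the centromere histone, the cytokinesis kinesin Kif23 and the histone chaperone Asf1b are examples from mitosis and chromatin assembly, and Mcm3 from DNA synthesis. All are examples that hold the motifs and do not stand for their lists. The promoters of Rrm2 and Uhrf1, searched alike and not shown, held CCAAT boxes but no E2F letters. Those shown are Ccnb2 at chr9:70421505-70421804 (minus strand), Cenpa at chr5:30666636-30666935 (plus), Kif23 at chr9:61946750-61947049 (minus), Asf1b at chr8:83955444-83955743 (plus) and Mcm3 at chr1:20820263-20820562 (minus).
Ccnb2: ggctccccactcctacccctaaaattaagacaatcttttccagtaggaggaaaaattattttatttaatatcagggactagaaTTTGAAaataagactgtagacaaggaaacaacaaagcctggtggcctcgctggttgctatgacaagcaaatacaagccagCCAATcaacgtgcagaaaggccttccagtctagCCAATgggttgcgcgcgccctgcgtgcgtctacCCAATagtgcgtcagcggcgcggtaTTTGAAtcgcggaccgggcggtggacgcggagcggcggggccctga
Cenpa: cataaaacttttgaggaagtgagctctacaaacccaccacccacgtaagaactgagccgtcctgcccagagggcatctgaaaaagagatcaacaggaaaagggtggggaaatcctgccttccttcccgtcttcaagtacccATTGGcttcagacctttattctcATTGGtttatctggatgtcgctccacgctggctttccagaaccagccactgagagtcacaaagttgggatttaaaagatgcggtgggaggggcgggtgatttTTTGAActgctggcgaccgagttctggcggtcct
Kif23: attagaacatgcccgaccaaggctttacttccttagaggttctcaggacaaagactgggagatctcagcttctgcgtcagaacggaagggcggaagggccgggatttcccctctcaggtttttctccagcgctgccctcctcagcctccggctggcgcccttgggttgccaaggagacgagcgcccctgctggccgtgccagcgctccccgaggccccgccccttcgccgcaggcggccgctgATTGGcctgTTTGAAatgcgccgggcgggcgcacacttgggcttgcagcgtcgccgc
Asf1b: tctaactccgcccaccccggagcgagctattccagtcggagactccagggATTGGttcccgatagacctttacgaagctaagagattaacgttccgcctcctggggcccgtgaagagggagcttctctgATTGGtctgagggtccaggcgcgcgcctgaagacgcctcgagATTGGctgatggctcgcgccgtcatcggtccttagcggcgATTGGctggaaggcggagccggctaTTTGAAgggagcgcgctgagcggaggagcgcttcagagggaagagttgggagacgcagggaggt
Mcm3: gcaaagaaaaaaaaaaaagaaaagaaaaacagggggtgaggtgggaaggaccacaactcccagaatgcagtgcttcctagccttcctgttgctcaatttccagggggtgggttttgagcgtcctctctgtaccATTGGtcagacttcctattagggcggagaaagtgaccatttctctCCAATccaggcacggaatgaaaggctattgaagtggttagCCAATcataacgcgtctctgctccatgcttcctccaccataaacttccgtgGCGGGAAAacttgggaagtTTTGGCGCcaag

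The CHR letters were found in 21 of the 28 mitosis genes with a RefSeq promoter (75%), in 2 of 27 DNA synthesis genes (7.41%) and in 14% of the 8264 tested genes with a promoter. A CHR together with a CCAAT box was found in 71.4% of the mitosis genes, against 6.98% of tested genes. The E2F letters were found in 9 of 27 DNA synthesis genes (33.3%), 1 of 28 mitosis genes (3.57%) and 3.53% of tested genes. G1 and S phase genes held a CHR in 5 of 12 cases (41.7%) and the E2F letters in 5 of 12, and myogenic commitment genes held a CHR in 5 of 11 (45.5%) and the E2F letters in none. Ribosomal protein genes held a CHR in 3 of 36 cases (8.33%) and the E2F letters in none, and genes of complexes III to V held a CHR in 3 of 26 (11.5%). A gene with several RefSeq starts was counted once if any of its promoters held the motif, motifs were allowed to overlap, and a match is a description of the letters only.

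**Figure D3:**
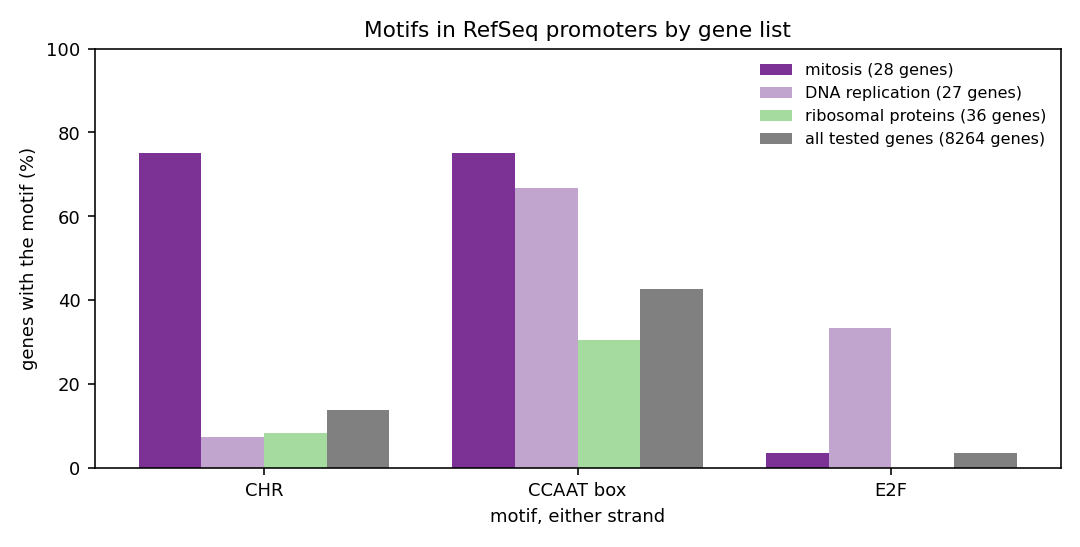
Percentage of genes whose RefSeq promoter (250 bases before to 50 after the start) holds the CHR, the CCAAT box or the E2F letters on either strand, in 3 gene lists and in all tested genes. The CHR bar is 75% in mitosis genes and 14% in all tested genes, and the E2F bar is 33.3% in DNA synthesis genes and 3.53% in all tested genes.

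Chromatin genes divided into assembly factors, which rose, and modifying enzymes, many of which fell. All 15 histone chaperones and mobile chromatin proteins tested were higher, and 13 after span removal. Asf1b, which hands histones H3 and H4 to the replication fork, was at 609.8 to 920.0 normalised counts (median 785) in activated cells, against 0, 11.5 and 0 in non-activated cells, so it was undetected in part of the non-activated libraries. Hmgb2, a DNA-bending protein of dividing cells, rose to 3142 to 4700.4 in activated cells, against 443, 539 and 304 in non-activated cells (log2 change 3.15, and 1.71 after removal). H2afz, the H2A.Z variant, whose message is polyadenylated, rose by 4.34 ± 0.20 (SE, adjusted p = 9.4e-13).

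Replication-dependent histones, whose messages end in a stem-loop and lack a poly-A tail, behaved otherwise. Of 7 tested, 3 were higher and 3 lower, and after span removal none was higher and 4 were lower. The 7 genes summed to 947 to 1195 normalised counts in activated libraries and 1225 to 1846 in non-activated libraries. Hist2h2be had the largest rise, at 2.40, but was at 0.83 and not called without non-activated library 3. The largest fall was that of Hist1h1e. Hist1h1e, a linker histone with a span of 0.748 kb, was at 10.1 to 19.1 normalised counts (median 14.1) in activated cells, against 811, 1139.5 and 757 in non-activated cells. This log2 change of -5.90 ± 0.32 (SE, adjusted p = 5.8e-12) stood beside the rise of 28 of 32 DNA synthesis genes in the same libraries. Poly-A selection was used in the activated libraries and not in the non-activated ones, and its part in the histone counts was not tested.

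Genes of DNA methylation moved in both directions. Uhrf1, which brings the maintenance methyltransferase to replicated DNA, was at 3054 to 5379 normalised counts (median 3935) in activated cells, against 228, 297 and 126 in non-activated cells, a log2 change of 4.28 ± 0.36 (SE, adjusted p = 2.9e-09). Dnmt1, that methyltransferase, had 3831 to 6599 in activated cells and 1005, 1693 and 1013 in non-activated cells, and its change of 2.02 was 2.49 after removal. Of the de novo enzymes, Dnmt3a fell, with a log2 change of -1.69 ± 0.13 (SE, adjusted p = 6.2e-10), and of -0.56 after removal, while Dnmt3b was at -0.62 (adjusted p = 0.056) and was called in neither form. The demethylating enzymes Tet1, Tet2 and Tet3 fell, with log2 changes of -2.42, -2.62 and -1.42, and remained lower after removal at -1.41, -1.74 and -0.39. Across the 16 genes of this list 5 were higher and 8 lower.

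Among 31 histone methylation and acetylation enzymes, 8 were higher and 20 lower, and 10 and 16 after span removal. Hdac4, a deacetylase that represses Mef2 targets, was at 1079 to 1666 normalised counts (median 1399) in activated cells, against 18815, 14995 and 16469.8 in non-activated cells (log2 change -3.63 ± 0.14 (SE, adjusted p = 9.0e-14), and -1.53 after removal). The arginine methyltransferases Prmt1 and Prmt5 rose by 2.43 and 2.07. Ezh1 and Ezh2 encode alternative catalytic subunits of the Polycomb H3K27 methyltransferase. Ezh1 had 541 to 1044 in activated cells and 1566, 1683 and 1677 in non-activated cells, and fell, with a log2 change of -0.97 ± 0.18 (SE, adjusted p = 8.8e-05). Ezh2 was at 1191 to 1676 normalised counts (median 1287) in activated cells and 1309, 1391 and 1679 in non-activated cells, ranges that overlapped, with a 95% interval of the log2 change of -0.39 to 0.19, and a change of 0.57 (adjusted p = 0.0018) after removal.

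Energy metabolism was higher across its branches. Of 15 genes of glycolysis and lactate handling 12 were higher and 2 lower, and 13 and 0 after span removal. Ldha, which makes lactate from pyruvate, was at 14348 to 20369.7 normalised counts (median 16643) in activated cells, against 1636, 1689.7 and 1430.2 in non-activated cells, a log2 change of 3.42 ± 0.15 (SE, adjusted p = 4.4e-13). The first enzymes of the path differed from the later ones, since Hk1 and Hk2, which phosphorylate glucose, were lower, with log2 changes of -0.40 and -0.52, while the glucose transporter Slc2a1 had 1282 to 1646 in activated cells and 1584 to 1754 in non-activated cells (adjusted p = 0.48). The call of Hk2 was lost after span removal, and Hk1 turned to 0.76.

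Mitochondrial genes rose in both genomes. In the citrate cycle 20 of 22 genes were higher, in complex I 28 of 31, and in complexes III to V 30 of 30. After span removal these counts were 21, 25 and 27, with list medians of 1.41, 0.96 and 1.45. Mpc1, one of the 2 subunits of the mitochondrial pyruvate carrier, went against its list, at 368 to 428 normalised counts (median 388) in activated cells and 497, 689 and 765 in non-activated cells, a log2 change of -0.71 ± 0.14 (SE, adjusted p = 1.2e-04), and -1.33 after removal, whereas its partner Mpc2 was higher at 0.82. Messages of 8 tested mitochondrially encoded proteins made up 2.30% to 2.54% of counts in activated libraries, against 0.271% to 0.343% in non-activated libraries, and all were higher. Their changes after span removal lie at the short end of the trend, and mt-Co1, a subunit of complex IV, was then at 0.01 (adjusted p = 0.97).

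Synthesis of serine, one-carbon units and nucleotides rose, with 14 of 16 genes higher and none lower, before and after span removal alike in number. Phgdh, the first enzyme of serine synthesis, had 1836 to 3687 in activated cells, against 61.9 to 226 in non-activated cells. Psat1, the next enzyme, had 3346 to 5435 in activated cells, against 366 to 575 in non-activated cells, so that both were clear of overlap. Asns, which makes asparagine, was at 396 to 896 normalised counts (median 504) in activated cells, against 0, 27.7 and 12.8 in non-activated cells. Cholesterol synthesis was higher for 13 of 15 genes, led by Hmgcs1, the enzyme that makes HMG-CoA, at 1.91 ± 0.21 (SE, adjusted p = 1.7e-07).

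Slc7a11, the cystine importer that supplies glutathione synthesis, showed one of the largest falls. It was at 40.4 to 87.4 normalised counts (median 50.1) in activated cells, against 8893, 9936 and 11679 in non-activated cells (ENSMUSG00000027737, GRCm38 chr3:49892526-50443614), a log2 change of -7.53 ± 0.24 (SE, adjusted p = 6.7e-15). With a span of 551 kb it belongs to the bin in which 87.1% of genes were lower, but after the span trend was removed its change was still -4.47 (adjusted p = 1.1e-10). Both subunits of the enzyme that uses the imported cysteine, Gclc and Gclm, fell, with log2 changes of -1.66 and -0.76, and of -1.45 and -0.98 after removal, while Nqo1 and Hmox1, other targets of the same oxidative stress factor, rose by 3.15 and 2.80. These 4 genes were picked after their values were seen, and over the whole list of 17 stress genes 10 were higher and 5 lower, against 6 and 6 after removal.

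Genes of protein synthesis were mostly short and mostly higher. Of 49 cytosolic ribosomal protein genes 48 were higher, their median change being 2.06, but only 27 were higher and 9 lower after span removal, when the median was 0.57. The exception at first was Rpl26 at -0.38, whose call was lost without any one of non-activated libraries 1 and 3 or activated libraries 1 and 4, with a range of -0.44 to -0.30. Ribosomal protein messages have many near-identical processed copies in the genome, so that their counts are uncertain. Ribosome biogenesis was higher for 14 of 18 genes, for example Npm1, the nucleolar chaperone, at 21724 to 29053 normalised counts (median 22888) in activated cells and 7371, 6429 and 5227 in non-activated cells. For translation factors and tRNA synthetases 25 of 31 were higher, led by Eif5a at 2.72 ± 0.16 (SE, adjusted p = 2.6e-11), and Eif4g3, a 215 kb gene, turned from -1.52 to 0.39 when the span trend was removed.

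The proteasome and the chaperonin TRiC were higher for 24 of 28 genes, and 24 after removal. Splicing factors divided, with 24 of 32 higher and 6 lower, and 15 and 10 after removal. Snrpd1, a core protein of the spliceosome, rose by 1.08 ± 0.12 (SE, adjusted p = 1.1e-07) but was no longer called after removal (0.21). Luc7l2 and Luc7l3, factors of the U1 particle that recognises the start of an intron, fell, with log2 changes of -1.52 and -1.50, and of -0.95 and -1.45 after removal. Hnrnpu, a nuclear RNA-binding protein, was at 2367 to 2925 normalised counts (median 2583) in activated cells, against 47.1, 7.69 and 4.98 in non-activated cells. It overlaps another annotated coding gene on its own strand, so the authors' counting may have left out or divided its reads, and its level is uncertain.

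Signalling genes differed less evenly. For Notch, 6 of 19 genes were higher and 10 lower, and 4 and 8 after span removal. The receptors Notch1, Notch2 and Notch3 were lower, at -0.75, -1.75 and -0.62, of which Notch2 alone was called after removal. Notch3 was at 8034 to 12612 normalised counts (median 10677) in activated cells and 15717, 14628 and 15976 in non-activated cells. Among target genes, Hes1 rose by 1.48 ± 0.19 (SE, adjusted p = 1.3e-06) and stood at -0.08 (adjusted p = 0.74) after removal. Heyl, a target long associated with quiescence, had 3939 to 7883 in activated cells and 6947 to 9422 in non-activated cells and was not called (adjusted p = 0.14), but was lower at -0.87 after removal. Of the cofactors, Maml2 fell, with a log2 change of -3.06, and of -2.10 after removal.

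In Wnt, BMP and TGF-beta signalling 8 of 28 genes were higher and 17 lower, and 6 and 16 after removal. The genes higher at first were mainly secreted factors, inhibitors and targets, such as Inhba, an activin subunit, at 2.84 (1.90 without non-activated library 1) and Id1, Id2 and Id3, BMP targets, at 2.19, 2.81 and 1.71, of which Id2 alone was called after removal. The transducers Smad1, Smad2, Smad3 and Smad4 were all lower before and after removal, from -0.90 for Smad2 to -2.29 for Smad1 as normalised. Tcf7l2, a transcription factor of the Wnt pathway, was at 349.9 to 411 normalised counts (median 390.5) in activated cells, against 3242, 3221 and 3629.9 in non-activated cells (log2 change -3.13 ± 0.12 (SE, adjusted p = 6.5e-14), and -1.36 after removal).

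Growth factor receptors and mTOR signalling had 5 of 22 genes higher and 13 lower, but 8 and 7 after span removal. The insulin-like growth factor receptor Igf1r, a 281 kb gene, was at 2073 to 2689.7 normalised counts (median 2592) in activated cells and 17805, 17785 and 21309 in non-activated cells, and its change of -2.94 was -0.70 after removal. Foxo1 and Foxo3, transcription factors that insulin-like signals switch off, fell, with log2 changes of -2.29 and -1.70, and of -1.37 and -0.69 after removal.

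Immediate early genes, which rise within minutes when cells are taken from tissue, were high in both groups. Fos was at 14330.0 to 45461 normalised counts (median 33858) in activated cells and 32294, 43646 and 42188 in non-activated cells, and the 95% interval of its log2 change was -0.90 to 0.27 (adjusted p = 0.32). Egr1 was at 27093 to 68505 normalised counts (median 56603) in activated cells and 36023, 47072 and 45134 in non-activated cells, with an interval of -0.21 to 0.81, and Egr1 was called higher, at 0.49, without activated library 1. The ranges overlapped for both genes, and both preparations held them at high counts. Over 25 such genes 11 were higher and 1 lower as normalised, and 0 higher and 18 lower after span removal, so the direction of the list rests on the treatment of span. Jun was lower in both forms, at -0.82 ± 0.24 (SE, adjusted p = 0.0052), and -2.43 after removal, and Myc, which drives growth genes, was higher at 0.91 ± 0.14 (SE, adjusted p = 9.9e-06) but -0.42 after removal.

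Extracellular matrix genes held some of the largest rises of the comparison. Of 23 genes of transitional and secreted matrix 20 were higher and 2 lower, with a median log2 change of 2.69, and 18 and 1 after removal. Spp1, encoding osteopontin (ENSMUSG00000029304, GRCm38 chr5:104435118-104441050), was at 3597 to 7968 normalised counts (median 5036) in activated cells, against 0, 0 and 14.2 in non-activated cells. Thbs4, thrombospondin 4, which is made by tendon and muscle, was at 23798 to 47024 normalised counts (median 29513) in activated cells and 0, 485 and 199 in non-activated cells, so its fitted change of 9.47 is 9.75 after removal and 6.71 when non-activated library 1, which had none, is left out. Tnc, tenascin C, rose by 2.72 ± 0.25 (SE, adjusted p = 1.2e-08) and Fn1, fibronectin, by 2.88 ± 0.36 (SE, adjusted p = 6.6e-07).

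Fibrillar and basement membrane genes differed. Among 24 collagens and crosslinking enzymes 13 were higher and 6 lower, and 15 and 2 after removal. Of the chains of type I collagen, Col1a1 had 8694 to 21452 in activated cells, against 277 to 586 in non-activated cells, and Col1a2 had 11469.5 to 25545 in activated cells, against 94.2 to 382 in non-activated cells. Of 22 laminins, nidogens, integrins and dystroglycan partners 8 were higher and 7 lower, but 14 and 2 after removal, so that the list as a whole depends on span. Lama2, the laminin chain of the fibre's basement membrane, shows this, at 4376 to 7149 normalised counts (median 5869.9) in activated cells and 28332, 29517 and 35926 in non-activated cells, with a change of -2.43 as normalised and 0.82 after removal of the trend for its 639.7 kb. Lamb1, another laminin chain, was higher in both forms, at 2.27 and 2.94.

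Proteases and their inhibitors had 13 of 22 genes higher and 3 lower, and 12 and 7 after removal. Timp1, an inhibitor of matrix metalloproteases, was at 1474 to 2826 normalised counts (median 1628) in activated cells, against 219.9, 119 and 92.5 in non-activated cells (log2 change 3.78 ± 0.28 (SE, adjusted p = 5.0e-10), and 2.40 after removal). Mmp3, which digests several matrix proteins, rose by 4.02 ± 0.65 (SE, adjusted p = 1.8e-05), or by 3.37 without non-activated library 2, and the membrane-bound Mmp14 by 0.61 ± 0.09 (SE, adjusted p = 3.6e-06), which turned to -0.32 after removal.

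Inflammatory genes were mixed. Of 19 chemokines, cytokines and NF-kB genes 10 were higher and 5 lower, but 5 and 9 after removal. Ccl2, which attracts monocytes, was at 1392 to 2151 normalised counts (median 1878) in activated cells, against 508, 179 and 333 in non-activated cells (log2 change 2.53 ± 0.28 (SE, adjusted p = 1.7e-07), and 0.59 with adjusted p = 0.06 after removal). Cxcl12 and Cxcl14 rose in both forms, by 3.15 and 3.31 as normalised. Nfkb1, a subunit of NF-kB, was at 4714 to 5825 normalised counts (median 5231) in activated cells, against 50430.1, 39222 and 54195 in non-activated cells, a log2 change of -3.17 ± 0.17 (SE, adjusted p = 4.1e-12), and -2.05 after removal.

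Interferon-response and antigen presentation genes had 13 of 21 higher and 2 lower, and 9 and 6 after removal. Isg15, a ubiquitin-like protein induced by interferon, was at 149 to 214 normalised counts (median 162) in activated cells, against 25.5, 3.85 and 8.53 in non-activated cells. Bst2, which tethers budding viruses, rose by 5.75 ± 0.72 (SE, adjusted p = 7.6e-07), with a range of 4.04 to 6.65 when any 1 library was left out. Irf1 and Stat2, transcription factors of the same response, fell, with log2 changes of -1.22 and -1.0, and of -2.25 and -1.33 after removal.

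Markers of cell types that the sort should remove were measured in both groups. For leukocytes, 10 of 23 markers were tested, 8 were higher and none lower, and their summed count was 1109 to 1664 in activated libraries and 195 to 365 in non-activated libraries. The defining markers Ptprc, Adgre1, Csf1r, Itgam and C1qa have no value in the table, and Lyz2, Cd14, Laptm5, Coro1a and Ctss were at 0 in non-activated library 1. Lyz2, the macrophage and neutrophil lysozyme, had the largest rise of the list, at 341 to 577 normalised counts (median 366) in activated cells, against 0, 20.8 and 25.6 in non-activated cells. Cd68 had 123 to 174 in activated cells and 198, 118 and 96.0 in non-activated cells and was not called (log2 change 0.10, adjusted p = 0.86). H2-Ab1 was not called either (1.04, adjusted p = 0.18). For endothelium, 8 of 14 markers were tested, 4 were higher and 1 lower. Cdh5, an adhesion protein of endothelial junctions, was higher by 3.8, Esam by 3.26, Fabp4 by 4.99 and Vwf by 1.61 on the log2 scale, of which Cdh5, Esam and Fabp4 were at 0 in non-activated library 1, and Tek, the angiopoietin receptor, was lower at -1.35 and at 0.012 after removal. Tek made up much of the endothelial sum in non-activated cells, at a mean of 743 in activated cells and 1856 in non-activated cells. The 8 markers summed to 2658 to 4029 in activated libraries and 2139 to 4136 in non-activated libraries, ranges that overlap, and Pecam1, which encodes the sorted-out CD31, had 319.7 to 639 in activated cells and 358 to 508 in non-activated cells.

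Most tested markers of fibro-adipogenic progenitors and tenocytes were at higher counts. Of 21 listed, 18 were tested, with 13 higher and 1 lower, and they summed to 117421 to 165272 in activated libraries, against 49311 to 57347 in non-activated libraries. The lower one was Tcf4, a different gene from the Tcf7l2 described above, at -2.36 and at 0.14 after removal. Tcf4 had 2908 to 3880 in activated cells and 15065 to 18983 in non-activated cells. Much of the non-activated sum came from Tcf4, Gsn and Col3a1, so the sum is no measure of the content of these cells. Among the tendon genes that were called, Comp had 851 to 2242 in activated cells and 0 to 9.96 in non-activated cells, Tnmd had 197 to 438 in activated cells and 0 to 14.2 in non-activated cells, and Fmod had 5684 to 12526 in activated cells and 60.9 to 173 in non-activated cells. No activated library overlapped a non-activated one for these genes. Mkx, a tendon transcription factor, averaged 98.6 in activated cells and 189 in non-activated cells and was not called (log2 change -0.92, adjusted p = 0.33). Pdgfra, the progenitor receptor, had 247 to 569 in activated cells and 119.8 to 272 in non-activated cells. Other progenitor markers were uneven. Dcn and Lum rose by 3.45 and 4.09 and Col3a1 by 0.77, whereas Dpt (-0.39), Cd34 (0.39) and Pi16 were not called. The matrix rises above were measured beside the higher counts of these markers, since among others Thbs4, Comp, Tnmd, Fmod, Col1a1 and Col1a2 are in both kinds of list. The part of other cells in the matrix rises was not tested. The 23 satellite identity genes summed to 119128 to 171969 in activated libraries and 224074 to 245114 in non-activated libraries. This sum was taken without removal of the span trend, and by gene 9 were higher and 10 lower. Ncam1, a gene of 297 kb, had 3513 to 5226 in activated cells and 28362 to 34768 in non-activated cells. Its log2 change of -2.91 was -0.60 after removal. For pericytes, Schwann cells and red cells or adipocytes, 8 of 11, 3 of 8 and 1 of 2 markers were higher. Pericyte and smooth muscle markers summed to 47183 to 60469 in activated libraries and 39837 to 45179 in non-activated libraries. Most of this sum came from Des, Acta2 and Notch3, the last of which is also in the Notch list. Des alone had 24546 to 31718 in activated cells and 17133 to 21659 in non-activated cells. Cspg4 and Abcc9 were not called, with log2 changes of -0.02 and 0.32. The sum is thus no measure of pericyte content. Kcnj8, a pericyte potassium channel, was at 3.79 and the globin gene Hbb-bt at 3.85 on the log2 scale, both of them at 0 in non-activated library 1. Without that library their changes were 1.79 and 3.23, and Hbb-bt was no longer called.

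**Figure D4:**
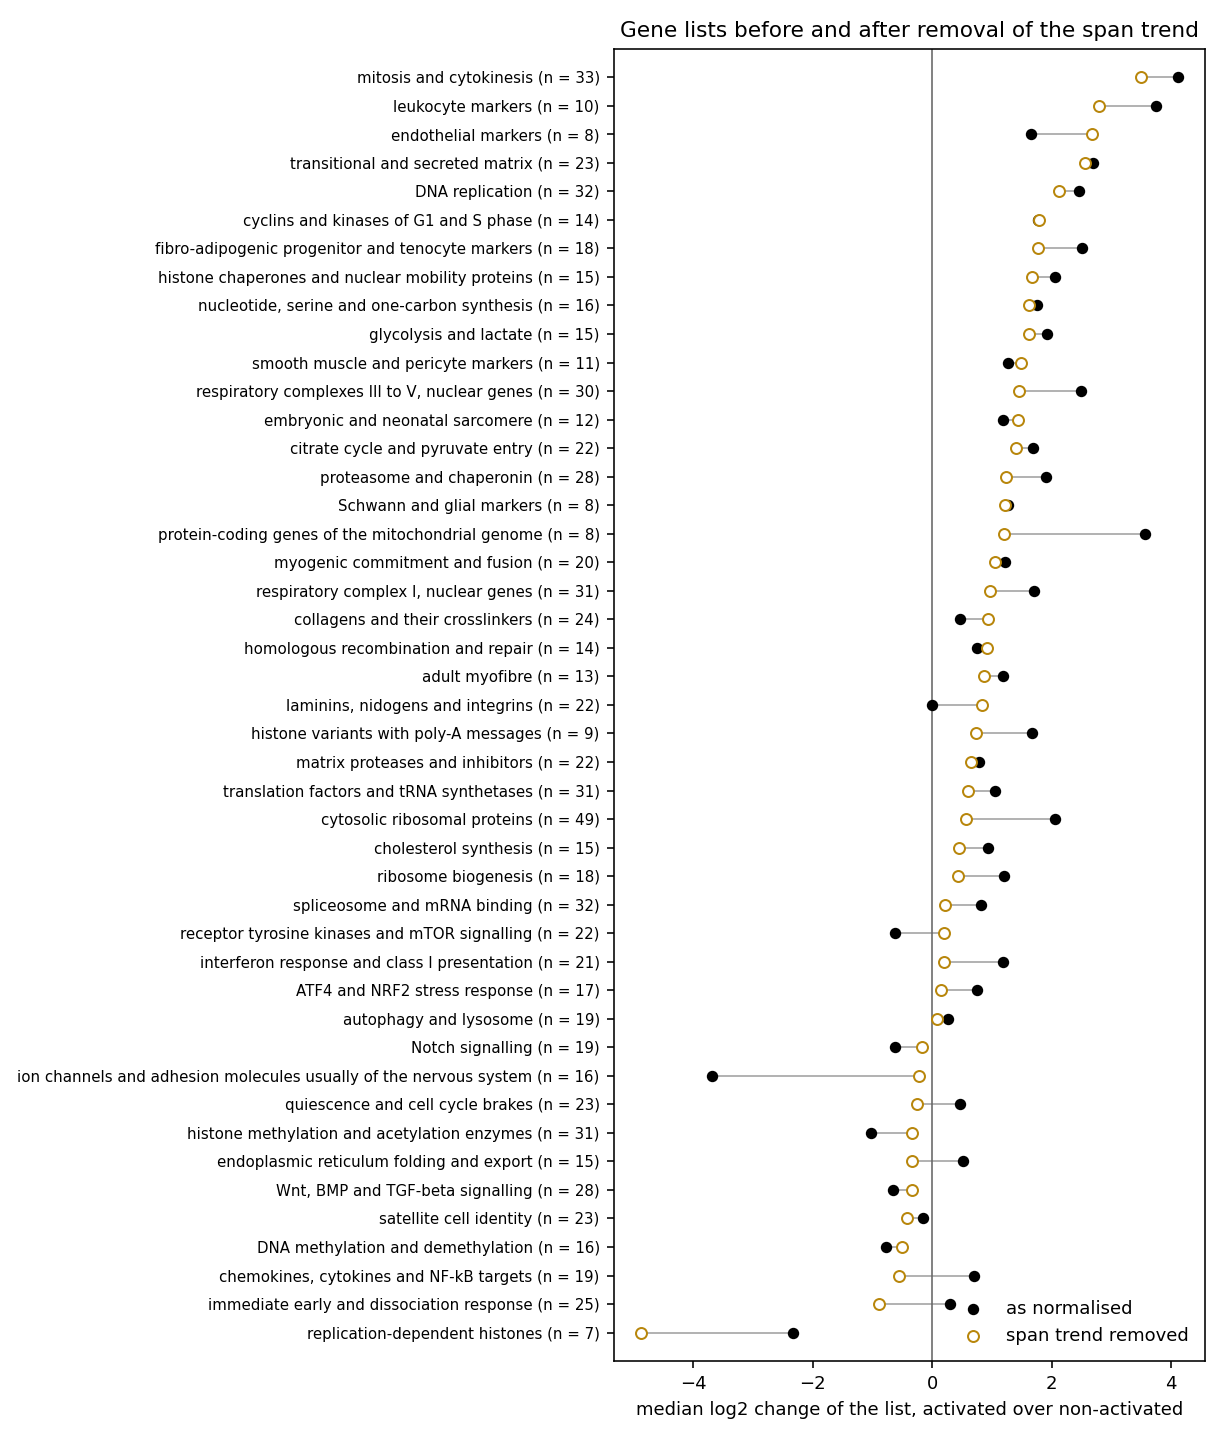
Median log2 change of each gene list with at least 3 tested genes, activated over non-activated, as normalised (filled) and after removal of the span trend (open); the number of tested genes is given beside each name. Mitosis is highest in both forms at 4.11 and 3.49, and the long ion channel and adhesion genes move from -3.68 to -0.21.

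Over the 46 lists, 38 held more higher than lower genes and 7 more lower than higher as normalised. After removal of the span trend the balance turned in 5 of them. Immediate early genes, quiescence genes, chemokines and endoplasmic reticulum folding genes turned to more lower, and growth factor signalling turned to more higher. A list of 16 ion channel and adhesion genes better known from the nervous system had a median span of 1006.5 kb. All 16 were lower, with a median of -3.68, beside 87.1% of all tested genes over 300 kb. After removal 3 of the list were higher and 6 lower. Nkain2 led them, at 24.5 to 57.1 in activated cells and 3948 to 7584 in non-activated cells, and remained lower at -2.84.

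Some genes moved against the span trend. Of 1720 tested genes of at least 100 kb, 93 were higher in activated cells, and the 8 with the largest changes were Itgbl1, Scp2, Smoc2, Col13a1, Cpe, Prune2, Cd36 and Vit. Prune2 had the highest activated level of those that overlap no other coding gene, at 750.3 to 1443 normalised counts (median 984) in activated cells, against 20.6, 106 and 74.7 in non-activated cells (log2 change 4.19 ± 0.37 (SE, adjusted p = 6.1e-09), or 3.50 without non-activated library 1). Itgbl1, an integrin-beta-like secreted protein, was at 196 to 385 normalised counts (median 223) in activated cells and 0, 0 and 14.2 in non-activated cells. Smoc2, a matricellular calcium-binding protein, had 124 to 273 in activated cells and 0, 40.8 and 0 in non-activated cells, and Col13a1, a transmembrane collagen of the nerve-muscle contact, had 73.3 to 175 in activated cells and 0, 0 and 13.5 in non-activated cells. Itgbl1, Smoc2 and Col13a1 were each at 0 in at least 1 non-activated library. Cd36, a fatty acid receptor also made by endothelium, had 432 to 737 in activated cells and 0, 112 and 235 in non-activated cells, and its change of 4.15 was 1.70 without non-activated library 1. Scp2, a lipid transfer protein, shares its strand with Podn, so its count is uncertain.

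Of 2218 tested genes of at most 10 kb, 92 were lower in activated cells. Among those with a group mean of at least 100, the largest fall was that of Hist1h1e, described above, followed by Cox20, an assembly factor of complex IV, at 11.7 to 14.7 in activated cells and 66.8, 107 and 316 in non-activated cells (log2 change -3.18 ± 0.45 (SE, adjusted p = 4.2e-06), or -2.55 without non-activated library 3). Pou3f1, a transcription factor of Schwann cells and neurons, had 15.1 to 24.5 in activated cells and 309, 174 and 25.6 in non-activated cells, where the spread was wide, and its fitted change had a range of -3.52 to -1.75 with any 1 library left out. The others were F830016B08Rik, Zfp593, Hddc3, Gm340 and Ccdc28b, with log2 changes of -2.73 to -2.06, of which Zfp593, Hddc3 and Ccdc28b overlap a coding gene on the opposite strand.

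After the span trend was removed, the largest rises among genes with a group mean of at least 100 were Spp1, Thbs4, Itgbl1, Actc1, Asf1b, Myh3, Lgals3 and Comp. Lgals3, galectin 3, which macrophages and injured muscle cells make, was at 1441 to 2979 normalised counts (median 1809) in activated cells, against 0, 16.2 and 29.2 in non-activated cells. The largest falls were Gm20721, Lsmem1, Hist1h1e, Cdk8, Ubap1l, Kcnmb4, Riiad1 and Avil. Cdk8, the kinase of the Mediator complex (ENSMUSG00000029635, GRCm38 chr5:146231230-146302874), stood at 1073 to 1356 normalised counts (median 1156) in activated cells, against 171511, 176546 and 168469 in non-activated cells. Cdk8 thus took 0.007% to 0.009% of the counts over genes with values in activated libraries and 0.973% to 1.05% in non-activated libraries. Its log2 change was -7.19 ± 0.19 (SE, adjusted p = 2.0e-15), and genes of 30 to 100 kb, the bin that holds its 71.6 kb span, had a median of -0.42. Lsmem1, a small membrane protein gene, had 0 to 6.37 in activated cells and 1683, 1893 and 1567 in non-activated cells, while Gm20721 overlaps Gnas and Avil overlaps Tsfm on the opposite strand, which makes both uncertain.

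Of the 148 genes named by rule, the authors' deposited table also passed 134 at its adjusted p with the same sign as here. A further 3 passed there only, 3 here only and 7 in neither. Actc1 passed here and has no adjusted p in the authors' deposited table. Overlap with another annotated coding gene on the same strand was found for 241 tested genes, whose median log2 change was 0.31, against 0.19 for the 9430 genes with no such overlap on either strand. A further 1080 genes overlapped one on the opposite strand only. Their median was 0.03, with 33.1% higher and 37.1% lower. Among the named genes, 18 overlap another coding gene on either strand. Beside those marked above, Ccnd1, Timp1, Ccl2, Irf1, Rad54l, Riiad1, Fbn1 and Dmd overlap one on the opposite strand. Whether reads were counted by strand is not given in the sources used here, so their counts carry the same uncertainty.

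The 6 activated libraries were made with the same kit. Library 1 stood apart most often. Over all tested genes, it was the highest of the 6 in 31.5% and the lowest in 23.4%. Dixon's criterion separated it from the other 5 in 306 genes (2.85%), against 157 (1.46%) for library 2 and 29 to 60 (0.27% to 0.56%) for libraries 3 to 6. Its summed count of 33 mitosis genes was 71046, while libraries 2 to 6 had 54568, 40721, 54588, 43778 and 46286. Its Pax7 count of 4555 was the lowest, with 5671, 7991, 6645, 7684 and 7205 in libraries 2 to 6.

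The order of the 6 libraries by Pax7 was the reverse of their order by mitosis genes, apart from libraries 2 and 4, which had nearly the same mitosis sum. Immediate early genes summed to 189549 in library 1 and to 326600 to 454480.0 in the other 5, so they were lowest where mitosis genes were highest. Collagens and crosslinkers went the other way, with the highest sum, 139216, in library 1. Myog did not follow this order, at 8859 in library 1 and 7561 to 9679 over all 6.

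**Figure D5:**
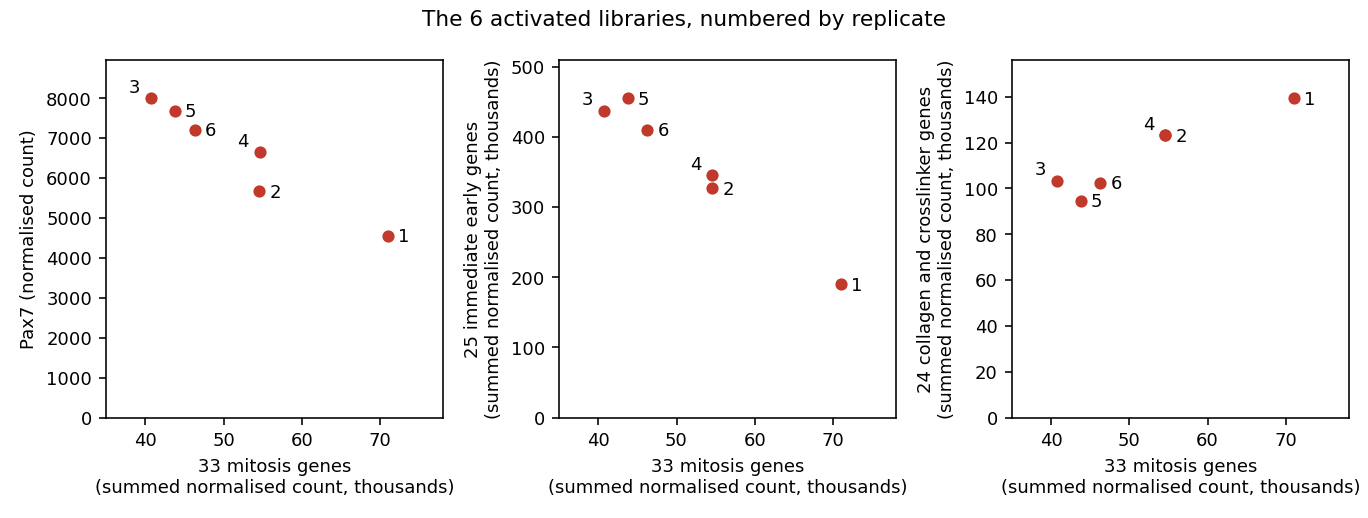
Each of the 6 activated libraries, numbered by replicate, by its summed normalised count of 33 mitosis genes (horizontal) and by Pax7, 25 immediate early genes and 24 collagen and crosslinker genes (vertical). Library 1 lies at the right end, with the lowest Pax7 and immediate early counts and the highest collagen sum.

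The genes of which library 1 differed most, among those with a mean of at least 500 in activated cells, were of mixed kinds. Of the 8 lowest, 3 were heat shock genes. Hspa1a, Hspa1b and Dnajb1, heat shock chaperones that also rise on dissociation, had 1219, 2543 and 2515 in library 1, against lowest values of 4745, 8660 and 5292 in the other 5. Zbtb16, a transcription factor induced by glucocorticoids, had 361 in library 1 and at least 1096 in the other 5. On the high side were Adam19, a membrane-anchored metalloprotease, at 2434 and Myh3 at 2054, with highest values of 1357 and 1232 in the others. These genes were selected by their values in the same libraries and are given as a description.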

How the data were processed

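The notes that the submitters gave GEO name build GRCm38 and, in no stated order, the tools TopHat2 2.0.14, HTSeq 0.6.0, DESeq2 1.22.1 and cutadapt 1.12. Per the file headers, the deposited table holds counts per gene, normalized counts, and for each of the authors' contrasts a log2 fold change with its adjusted p-value. Genes without a value carry a question mark, so the columns mix numbers and text, their unit was recorded as other, and no count model was run. A single factor per library turned each count into its deposited normalized value.

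Deposited normalized counts were transformed as log2(value + 1) and tested with limma 3.58.1 (R 4.3.3, limma-trend) in 1 fit of all 18 libraries in 4 groups, on genes with at least 10 in at least 3 libraries, with Benjamini-Hochberg adjustment over all 10751 genes and a threshold of 0.05. The contrast was activated minus non-activated. Fold changes are on the log2(value + 1) scale, so that they understate many changes of low genes, while for genes at 0 in some non-activated libraries they can exceed the ratio of the group means. In the span-removed form, a loess curve of each library's deviation from the gene mean against log10 span was subtracted before the same fit. The fit was tested on simulated data. A further 6 columns of other samples were not used. Python 3.11.15 with pandas 2.3.3, numpy 2.4.6 and matplotlib 3.10.9 made tables and plots.

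Named genes were a fixed list of 56, the 8 largest rises among genes of at least 100 kb, the 8 largest falls among genes of at most 10 kb, the 8 largest changes each way after span removal (these called, not overlapping, and with a group mean of at least 100), and in each of 46 lists the called gene with the largest change each way. Some of these genes are not reported here. Other genes were picked after their values were seen. The comparison, the members and the lists were chosen with earlier results of these data known. Promoters came from RefSeq (GRCm38.p6).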

Additional observations from a re-analysis of the deposited data

Results flagged for a closer look

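Among the 148 named genes, 8 had 1 activated library far from the other 5 by Dixon's criterion. Chance alone flags about 1 in 20 groups, so 8 of 148 is close to that rate and is no result about the named genes. Over all tested genes, library 1 was separated in 2.85%, library 2 in 1.46% and library 5 in 0.44%. Library 1 was the highest for 5 of them. Fn1 was at 13907 there, against 4303 to 7861 in the others, Erbb3, a neuregulin receptor, at 429 against 190.3 to 265, and Inhba at 60.9 against 16.7 to 30.3. In the same library Lamb1 was at 2594 against 1295 to 1777, and Sgcd, a sarcoglycan of the fibre membrane, at 23.6 against 12.4 to 15.1. Library 5 was the highest for Luc7l2, at 4125 against 3273 to 3560, and for Bst2, at 705 against 532 to 592. Library 2 was the lowest for Ern1, a sensor of misfolded protein, at 529.9 against 642 to 695.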

How the results depend on the processing

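The counts of 4189 genes higher and 3617 lower stayed within 1.5 times under other pseudocounts, filters and scalings (3917 to 4798 higher, 3187 to 3698 lower), span removal (3638 and 3178), a fit of the 9 libraries alone (4320 and 3716) and a spread estimated by group (3915 and 3258). Requiring a change beyond 1.5-fold left 2724 higher and 2386 lower. Total count and upper quartile scaling moved the median of all genes to 0.36 and 0.38. A fit with the replicate block called 3925 and 3486. Deviations from the group mean correlated at 0.003, -0.014 and 0.028 between same-numbered activated and non-activated libraries. Other pairs of numbers gave -0.058 to 0.042. No pairing by number was seen, but the kits differ between the groups and the labels do not settle whether samples were paired. Leaving out 1 library gave 3939 to 4098 higher and 3485 to 3582 lower. It moved the fitted fold of 42 called named genes by over 1.5 times when a non-activated library was left out, mostly genes near 0 there, and of none when an activated one was.

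Of the 148 named genes, 16 changed sign when the span trend was removed, and the cause was not tested. They were Myf5 (-0.67), Hes1 (-0.0841), Egr1 (-1.01), Myc (-0.42), Ccnd1 (-0.39), Mmp14 (-0.32), Ezh2 (0.57), Lama2 (0.82), Dmd (0.23), Prim2 (0.92), Polr1a (0.21), Eif4g3 (0.39), Sgcd (0.85), Fbn1 (0.50), Tek (0.012) and Tcf4 (0.14). Ezh2 was at 0.0927 and 0.11 under total count and upper quartile scaling and 0.00909 under the replicate block, and Vcam1 at 0.11 and 0.12 under the scalings. With 1 library left out, Pecam1 ranged from -0.12 to 0.14, Ezh2 from -0.18 to 0.00222 and Vcam1 from -0.25 to 0.0608. Notch3, Kit, Jun, Hk2, Rpl26 and Hbb-bt lost their calls with a spread by group. In 3 non-activated libraries, 49 to 590 genes had no reads, which limits the precision of folds for genes absent there.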

Other observations

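A group of genes was nearly undetected in non-activated cells and well measured in activated cells. Of all tested genes, 18 had at most 50 normalised counts in each non-activated library and at least 500 in each activated library. Beside the mitosis, matrix and sarcomere genes described above, they included Atp5k, a subunit of the ATP synthase, at 1154 to 1617 in activated cells and 0, 23.1 and 7.82 in non-activated cells, and Mgp, the matrix Gla protein that inhibits calcification, at 1831 to 3872 in activated cells and 20.6, 44.6 and 13.5 in non-activated cells. Gtf3c2, a factor of RNA polymerase III, was at 627 to 743 in activated cells and 0, 19.2 and 8.53 in non-activated cells, but it overlaps another coding gene on its strand, as do Hnrnpu and Scp2. Zfp644, a zinc finger gene of 80.5 kb, was at 504 to 678 in activated cells and 0, 20.8 and 26.3 in non-activated cells, a rise in a bin where 49.1% of genes were lower.

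Folding genes of the endoplasmic reticulum are not described above. Of 15, 10 were higher and 3 lower, and 7 and 8 after removal of the span trend. Sdf2l1, which assists protein folding there, was at 294 to 551 in activated cells and 0, 39.2 and 32.7 in non-activated cells, while the sensors Ern1 and Atf6 fell, with log2 changes of -2.85 and -2.55, and of -1.85 and -0.98 after removal. In autophagy and lysosome genes 10 of 19 were higher and 6 lower, with Ctsd, the lysosomal protease cathepsin D, at 2.24 ± 0.19 (SE, adjusted p = 4.5e-09) and Atg16l1, needed to form autophagosomes, at -1.10 ± 0.12 (SE, adjusted p = 7.0e-08). Ctsd overlaps the coding gene Ifitm10 on its own strand, so its count is uncertain. Homologous recombination and repair had 6 of 14 higher and 4 lower, and 8 and 1 after removal, led by Rad54l at 3.42 and by Atm, the damage kinase, at -1.11, which was -0.07 after removal.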
